A study of Mus musculus with 2 samples.

Results

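The MAP kinase cascade genes examined here are the kinases of the 4 tiers of mitogen-activated protein kinase signalling and the kinases that MAP kinases phosphorylate. They were taken by symbol from the deposited count table, as every gene named Map4k, Map3k, Map2k, Mapk or Mapkapk followed by a number, with Map3k14 left out. This gave 39 of the 18987 genes in the table, namely 5 MAP4Ks, 16 MAP3Ks, 6 MAP2Ks, 10 MAPKs and 2 MAPK-activated protein kinases. Mapk10, Mapk12, Mapk13 and Map2k6 are not analysed here.

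The study sequenced RNA from RAW264.7 cells, a macrophage-like mouse line that turns into osteoclasts under RANKL, in 2 libraries. One culture carried an shRNA against Cpeb4, which encodes a cytoplasmic polyadenylation element-binding protein, and the other carried a control shRNA. Both were seeded at 7500 cells per cm2, received RANKL at 100 ng/ml 24 h later, and were profiled at day 3 after RANKL. All cells were thus RANKL-treated, there was no culture without RANKL, and the labels name no clone, second hairpin or repeat culture.

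In this cascade a MAP4K or another upstream signal activates a MAP3K, which phosphorylates a MAP2K, which in turn phosphorylates a MAPK on its activation loop. The main branches end in ERK, JNK, p38 and ERK5. In osteoclast precursors, RANKL binding to its receptor RANK recruits TRAF6, and the MAP3K called TAK1 then feeds the JNK, p38 and NF-kB pathways. These steps are regulated mainly by phosphorylation, which RNA counts do not measure.

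With 1 library per group there was no test, and every difference compares these 2 libraries only. Counts were scaled with TMM and given as CPM, the counts relative to the scaled library size, and a gene was called higher or lower when its CPM in the Cpeb4 shRNA library was at least 2-fold above or below that in the control shRNA library. Intervals are exact 95% intervals for counting error alone. Where an RNA is lower in a bulk sample, fewer cells with that RNA and less of it per cell cannot be told apart.

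Library totals were 119350322 counts with Cpeb4 shRNA and 79399680 counts with control shRNA. Cpeb4 itself had 13491 counts (104 CPM) in the Cpeb4 shRNA library and 25270 counts (345 CPM) in the control shRNA library, a log2 ratio of -1.73 (-1.76 to -1.70). Macrophage markers were present, with 11 of 12 listed in the table, and their summed level was 3119 CPM with Cpeb4 shRNA and 4850 CPM with control shRNA. They did not differ in 1 direction. Of the 8 with a mean of at least 1 CPM, 6 were within 2-fold. The others were 1 higher (12.5%, beside 14.6% of all genes) and 1 lower (12.5%, beside 11.8%). Summed osteoclast markers stood at 12397 CPM with Cpeb4 shRNA and 52366 CPM with control shRNA (12 of 12 listed). Summed proliferation markers stood at 2336 CPM with Cpeb4 shRNA and 187 CPM with control shRNA (12 of 12 listed). Of granulocyte and mast cell markers 0 of 12 were listed. The table holds only genes with at least 1 count in both libraries, so a marker without counts in 1 library is missing. The listed lymphoid (3 of 12), fibroblast and osteoblast (6 of 12) and epithelial markers (1 of 8) summed to at most 1.42 CPM per list in either library. Dendritic cell markers (6 of 12 listed) summed to 6.76 CPM with Cpeb4 shRNA and 43.0 CPM with control shRNA. The part that differences in differentiation, proliferation or depth have in the results below was not tested.

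Most of the cascade differed little between the libraries. A filter on the mean level over both libraries (1 CPM or more) kept 37 members, of which 30 were within 2-fold, 3 were higher with Cpeb4 shRNA and 4 were lower. Over all 12086 genes past this filter, 14.6% were higher and 11.8% were lower, so the members' shares (8.11% and 10.8%) were not above the background. Their median log2 ratio was 0.027, with quartiles of -0.34 and 0.32, against a median of 0.051 over all genes with quartiles of -0.51 and 0.62. The higher members were Map3k15, Map4k1 and Mapk11, and the lower ones were Map2k5, Mapk4, Map4k4 and Map4k3. Map3k15, Map4k1 and Mapk4 were under 1 CPM in a single library and passed the filter only through the other. A total of 25 members were within 1.5-fold.

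**Figure D1:**
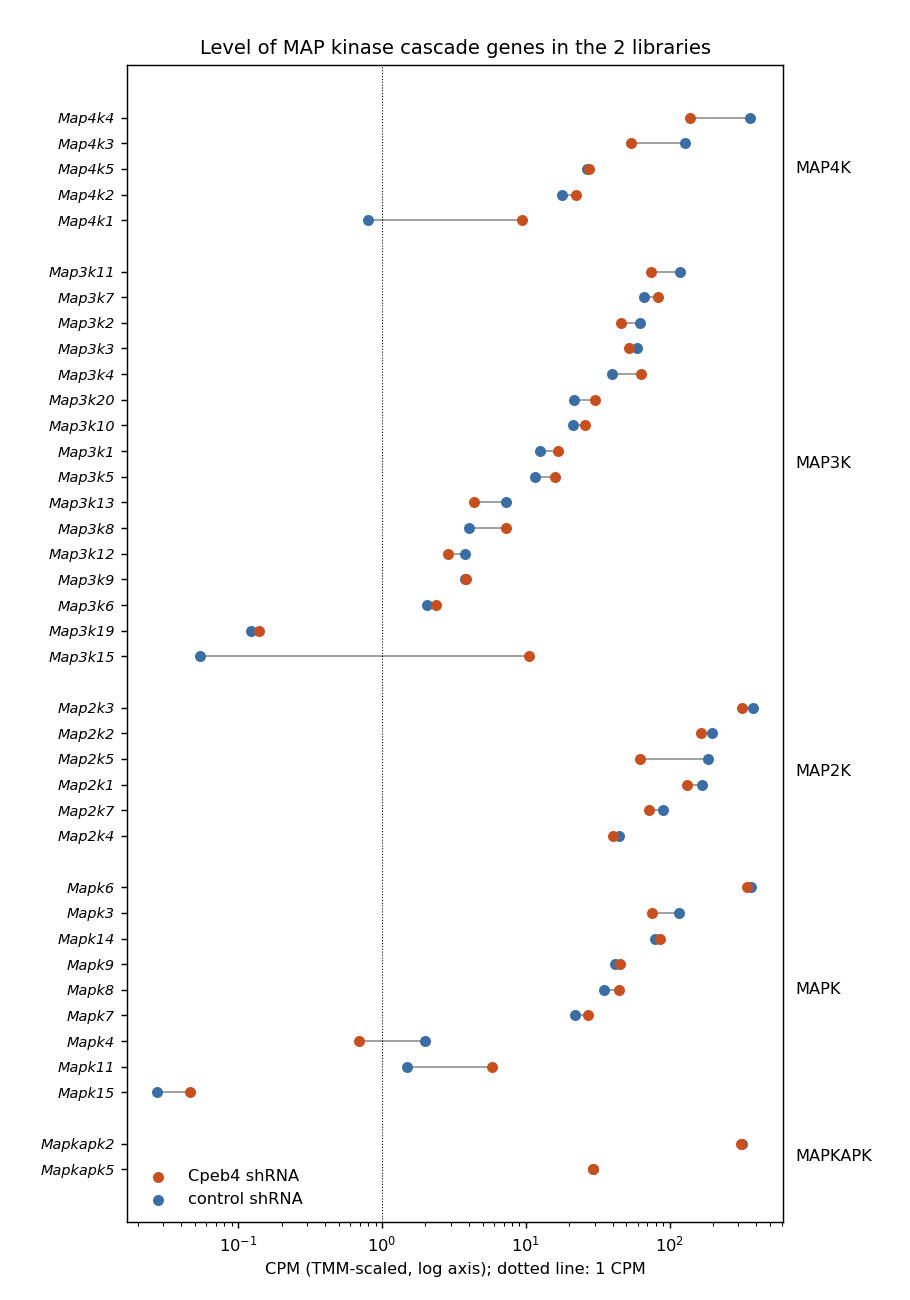
Level of 38 cascade genes in CPM on a log axis, grouped by tier and ordered by the control shRNA level, with 1 point per library and a line joining them. Most pairs of points nearly touch, while Map3k15 lies at 10.5 CPM with Cpeb4 shRNA and 0.055 CPM with control shRNA.

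The MAP4K tier held differences in both directions. These STE20-family kinases act at the top of the cascade and feed mainly into JNK. Map4k4 (ENSMUSG00000026074; mm10 chromosome 1, 39900913 to 40026310) had 17860 counts (138 CPM) in the Cpeb4 shRNA library and 26614 counts (363 CPM) in the control shRNA library. It was thus 2.63-fold lower with Cpeb4 shRNA (log2 ratio -1.40, interval -1.42 to -1.37). Map4k3 (ENSMUSG00000024242; chromosome 17, 80580512 to 80728485), a kinase also placed upstream of amino acid signalling to mTORC1, had 6951 counts (53.7 CPM) with Cpeb4 shRNA and 9392 counts (128 CPM) with control shRNA. Its log2 ratio was -1.26 (-1.30 to -1.21). Map4k4 was also the most abundant MAP4K per kilobase of exon in both libraries, at 14.4 CPM per kb with Cpeb4 shRNA and 37.9 CPM per kb with control shRNA, and Map4k3 came next in both.

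Map4k1 went the other way. It encodes HPK1, a kinase found mainly in blood cells that restrains antigen receptor signalling in lymphocytes. The gene (ENSMUSG00000037337; chromosome 7, 28982050 to 29003279) had 1218 counts (9.41 CPM) with Cpeb4 shRNA and 58 counts (0.792 CPM) with control shRNA, an 11.9-fold higher level (log2 ratio 3.57, 3.19 to 3.98, and 2.94 with a pseudocount of 0.5 CPM). Map4k2 and Map4k5 were within 2-fold, at log2 ratios of 0.32 and 0.055. Summed over the tier, the level was 251 CPM with Cpeb4 shRNA and 537 CPM with control shRNA. Within each library, which needs no scaling, Map4k4 took 55.0% of the tier's counts with Cpeb4 shRNA (54.5 to 55.6%) and 67.7% with control shRNA (67.2 to 68.2%). Map4k1 took 3.75% (3.55 to 3.96%) with Cpeb4 shRNA and 0.148% (0.112 to 0.191%) with control shRNA.

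Among the MAP3Ks, which integrate most of the upstream signals, Map3k15 stood far apart and the other 14 past the filter were within 2-fold. The tier thus had 1 of 15 genes higher (6.67%, beside 14.6% of all genes) and 0 lower (beside 11.8%). Map3k15 (ENSMUSG00000031303; chromosome X, 159988433 to 160123351) encodes ASK3, a member of the apoptosis signal-regulating kinase family that is known to respond to osmotic change. It had 1358 counts (10.5 CPM) in the Cpeb4 shRNA library and 4 counts (0.055 CPM) in the control shRNA library, a log2 ratio of 7.59 (6.23 to 9.46). Counted from the highest ratio it ranked 2 of the 12086 genes. The size of the ratio rests on the 4 control counts, and values of 4 were more frequent than values of 3 or 5 in both libraries (364 genes against 282 and 205 with Cpeb4 shRNA, and 585 against 444 and 286 with control shRNA). With a pseudocount of 0.5 CPM the log2 ratio was 4.31. Exons of Map3k15 overlap those of Pdha1 on the opposite strand, and it is not stated in the sources whether the counting used strand. Pdha1 had 27233 counts (210 CPM) with Cpeb4 shRNA and 27129 counts (370 CPM) with control shRNA, a log2 ratio of -0.82, and its part in the Map3k15 counts was not tested.

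The relatives of Map3k15 did not share its difference. Map3k5, which encodes the stress-activated ASK1, had 2058 counts (15.9 CPM) with Cpeb4 shRNA and 843 counts (11.5 CPM) with control shRNA, a log2 ratio of 0.47 (0.35 to 0.58). Map3k6, which encodes ASK2, had 305 counts with Cpeb4 shRNA and 151 counts with control shRNA, and its interval of -0.09 to 0.48 held 0. In the Cpeb4 shRNA library Map3k15 (2.41 CPM per kb) was thus at about the level of Map3k5 (2.61 CPM per kb), and in the control shRNA library it was far under it (0.013 against 1.89 CPM per kb).

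Map3k7 and Map3k8, which act in RANK and Toll-like receptor signalling, were within 2-fold. Map3k7, which encodes TAK1, had 10645 counts (82.3 CPM) with Cpeb4 shRNA and 4847 counts (66.2 CPM) with control shRNA. Its log2 ratio was 0.31 (0.26 to 0.36), or 1.24-fold. Map3k8 encodes TPL2, the kinase that links inflammatory receptors to MEK1/2 in macrophages. It had 939 counts (7.26 CPM) with Cpeb4 shRNA and 293 counts (4.0 CPM) with control shRNA, a log2 ratio of 0.86 (0.67 to 1.05), the highest of any member within 2-fold. Under total-count scaling it passed 2-fold.

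The MEKK genes were split. Map3k4, a p38 and JNK activator, was at 0.67 (0.61 to 0.73), with 63.3 CPM in the Cpeb4 shRNA library and 39.7 CPM in the control shRNA library. Map3k1, which signals to JNK and ERK, was at 0.44. Map3k2 and Map3k3, the MEKKs known to activate the ERK5 branch, were at -0.43 and -0.20, and Map3k3 moved above 0 under total-count scaling.

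The mixed-lineage kinases, which mainly activate JNK, ran from lower to higher. Map3k11 encodes MLK3 and was the most abundant MAP3K per kilobase in both libraries (17.0 CPM per kb with Cpeb4 shRNA and 27.0 CPM per kb with control shRNA). It had 9655 counts (74.6 CPM) with Cpeb4 shRNA and 8678 counts (118 CPM) with control shRNA, a log2 ratio of -0.67 (-0.71 to -0.63). Map3k13 had the lowest ratio of the tier at -0.73 (-0.91 to -0.56), from 566 counts with Cpeb4 shRNA and 533 counts with control shRNA. Map3k12, Map3k9 and Map3k10 were at -0.40, 0.027 and 0.30. Map3k20, which encodes the ribosome-stress kinase ZAK, was at 0.51 (0.42 to 0.59). Map3k19 was below the filter, with 18 counts with Cpeb4 shRNA and 9 counts with control shRNA. Summed MAP3K levels were nearly equal, at 438 CPM with Cpeb4 shRNA and 433 CPM with control shRNA.

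**Figure D2:**
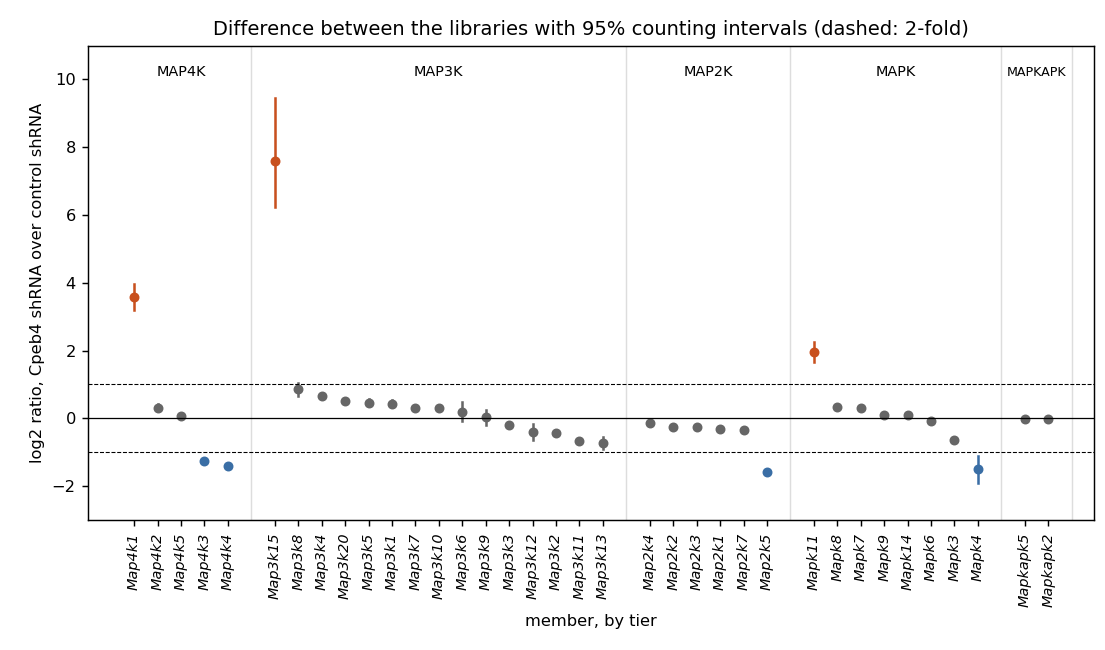
Log2 ratio of the Cpeb4 shRNA library over the control shRNA library for 36 of the 37 members past the filter, ordered within each tier. Points are single values, vertical lines are 95% counting intervals, dashed lines mark 2-fold, and orange and blue points are the 3 higher and 4 lower members.

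All 6 MAP2Ks had a log2 ratio below 0 under TMM scaling (beside 5741 of all 12086 genes), but 5 of them by little. Total-count scaling placed Map2k4 and a correction for GC content and length placed Map2k2 above 0. The exception in size was Map2k5 (ENSMUSG00000058444; chromosome 9, 63163768 to 63377902), which encodes MEK5, the activator of ERK5. It had 8023 counts (62.0 CPM) in the Cpeb4 shRNA library and 13479 counts (184 CPM) in the control shRNA library. This was a 2.97-fold lower level, with a log2 ratio of -1.57 (-1.61 to -1.53), the lowest of the whole cascade. Map2k5 was the second most abundant MAP2K per kilobase in the control shRNA library, at 56.8 CPM per kb, and stood at 19.1 CPM per kb with Cpeb4 shRNA. Its share of the 6 genes' counts was 7.87% with Cpeb4 shRNA (7.70 to 8.03%) and 17.4% with control shRNA (17.1 to 17.6%).

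The ERK activators Map2k1 and Map2k2, which encode MEK1 and MEK2, differed alike. Map2k1 had 17175 counts (133 CPM) with Cpeb4 shRNA and 12172 counts (166 CPM) with control shRNA, at a log2 ratio of -0.32 (-0.36 to -0.29). Map2k2 had 21468 counts (166 CPM) with Cpeb4 shRNA and 14465 counts (198 CPM) with control shRNA, at -0.25 (-0.28 to -0.22). Map2k1 therefore made up 44.4% of the pair's counts with Cpeb4 shRNA (43.9 to 44.9%) and 45.7% with control shRNA (45.1 to 46.3%).

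The p38 activator Map2k3 was the most abundant MAP2K per kilobase in both libraries. It had 40926 counts (316 CPM) with Cpeb4 shRNA and 27672 counts (378 CPM) with control shRNA, a log2 ratio of -0.26 (-0.28 to -0.23). The JNK activators Map2k4 and Map2k7 were at -0.15 (-0.21 to -0.08) and -0.34 (-0.38 to -0.29). Map2k4 took 36.0% of the counts of that pair with Cpeb4 shRNA and 33.0% with control shRNA.

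The MAP2Ks act on the activation loop of the ERK, JNK, p38 and ERK5 kinases. The coding sequences below are from GENCODE M21 transcripts for GRCm38. They are shown because the capitals tell the JNK and p38 genes from each other and from the ERK genes. Outside Mapk6 the capitals are the codons of the phosphorylated residues and the residue between them. In Mapk6 they are the codons at the same place. Each sequence is printed 5′ to 3′ on the coding strand.
Mapk3 (ERK1): ggctttctgACGGAGTATgtggccaca
Mapk7 (ERK5): tacttcatgACTGAGTATgtggctact
Mapk8 (JNK1): tttatgatgACGCCTTATgtggtgact
Mapk9 (JNK2): tttatgatgACTCCCTATgtggtaact
Mapk14 (p38 alpha): gatgagatgACAGGCTACgtggctacc
Mapk11 (p38 beta): gaggagatgACCGGATATgtggccaca
Mapk6 (ERK3): ggtcatcttTCTGAAGGAttggttacc
Mapk3 and Mapk7 alike code for threonine, glutamate and tyrosine, so these residues do not tell the ERK branch from the ERK5 branch. The JNK genes code for threonine, proline and tyrosine, and the p38 genes for threonine, glycine and tyrosine. Mapk6, an atypical MAPK, codes for serine, glutamate and glycine there and lacks the tyrosine.

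In the ERK branch, Mapk3, which encodes ERK1, was lower without reaching 2-fold. It had 9671 counts (74.7 CPM) in the Cpeb4 shRNA library and 8498 counts (116 CPM) in the control shRNA library, a log2 ratio of -0.63 (-0.68 to -0.59), or 1.55-fold lower with Cpeb4 shRNA. Per kilobase of exon it stood at 33.1 CPM per kb with Cpeb4 shRNA and 51.4 CPM per kb with control shRNA, next after Mapk6 in the MAPK tier in both libraries.

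The p38 branch held the third of the higher members. Mapk14, the main p38 gene of macrophages, hardly differed, with 10987 counts (84.9 CPM) with Cpeb4 shRNA and 5798 counts (79.2 CPM) with control shRNA (log2 ratio 0.10, 0.055 to 0.15). Mapk11 (ENSMUSG00000053137; chromosome 15, 89142486 to 89149628) had 746 counts (5.77 CPM) with Cpeb4 shRNA and 109 counts (1.49 CPM) with control shRNA. It was 3.87-fold higher with Cpeb4 shRNA, at a log2 ratio of 1.95 (1.66 to 2.26). It still made up a small part of the pair, 6.36% of the summed counts with Cpeb4 shRNA (5.92 to 6.81%) and 1.85% with control shRNA (1.52 to 2.22%).

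The JNK genes differed by less than 1.5-fold. Mapk8 was at 0.34 (0.27 to 0.41), from 5703 counts with Cpeb4 shRNA and 2546 counts with control shRNA. Mapk9 was at 0.10 (0.041 to 0.17), from 5809 counts with Cpeb4 shRNA and 3058 counts with control shRNA. Mapk8 took 49.5% of their counts with Cpeb4 shRNA (48.6 to 50.5%) and 45.4% with control shRNA (44.1 to 46.7%).

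In the ERK5 branch the MAPK and its activator differed in opposite directions under TMM scaling. Mapk7, which encodes ERK5, had 3505 counts (27.1 CPM) with Cpeb4 shRNA and 1611 counts (22.0 CPM) with control shRNA. Its log2 ratio was 0.30 (0.21 to 0.39), beside -1.57 for Map2k5. Exons of Mapk7 overlap another annotated gene, Mfap4, on the opposite strand.

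Of the atypical MAPKs, Mapk6 was the most abundant MAPK per kilobase in both libraries and was close to equal, with 345 CPM with Cpeb4 shRNA and 365 CPM with control shRNA (log2 ratio -0.08, and above 0 under total-count scaling). Its relative Mapk4 (ENSMUSG00000024558) was near the filter, with 90 counts (0.696 CPM) with Cpeb4 shRNA and 145 counts (1.98 CPM) with control shRNA. Its log2 ratio was -1.51 (-1.90 to -1.12, and -1.05 with a pseudocount of 0.5 CPM). Its exons overlap the annotated gene Gm9925 on the opposite strand. Mapk15 had 6 counts with Cpeb4 shRNA and 2 counts with control shRNA, and its interval of -1.72 to 4.10 held 0.

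**Figure D3:**
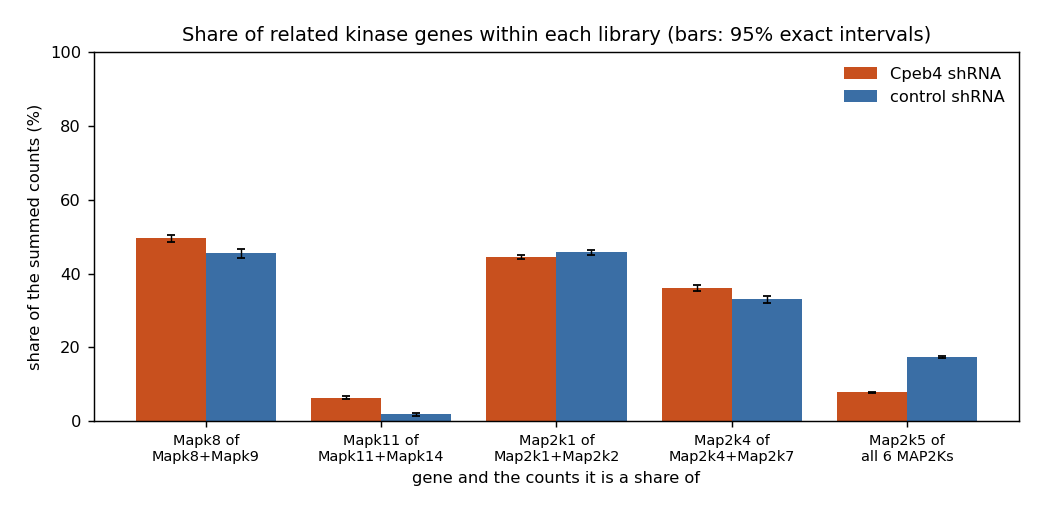
Share of a gene in the summed counts of related kinase genes within each library, in percent, with Cpeb4 shRNA in orange, control shRNA in blue and exact 95% intervals for counting error as bars. Mapk11 takes 6.36% of the Mapk11 and Mapk14 counts with Cpeb4 shRNA and 1.85% with control shRNA, and Map2k5 takes 7.87% of the MAP2K counts with Cpeb4 shRNA and 17.4% with control shRNA.

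The 2 MAPK-activated protein kinase genes were at nearly equal levels under TMM scaling. Mapkapk2 encodes MK2, the p38 target that controls the stability of inflammatory mRNAs. It had 40489 counts (313 CPM) with Cpeb4 shRNA and 23439 counts (320 CPM) with control shRNA, a log2 ratio of -0.032 (-0.056 to -0.009). At 103 CPM per kb with Cpeb4 shRNA and 105 CPM per kb with control shRNA, it was among the most abundant RNAs of the cascade. Mapkapk5, which encodes MK5, the partner of ERK3, had 3789 counts (29.3 CPM) with Cpeb4 shRNA and 2155 counts (29.4 CPM) with control shRNA, and its interval of -0.08 to 0.07 held 0. Both moved above 0 under total-count scaling.

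The order of the members was largely shared by the libraries. Across the 37 members the CPM per kb had a Spearman correlation of 0.95 between the libraries, a description across genes of the same pair of libraries.

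Genes around the cascade were read in 8 lists by role, with 130 genes past the filter. Of these, 8 were higher (6.15%, beside 14.6% of all genes) and 15 were lower (11.5%, beside 11.8% of all genes), with a median log2 ratio of -0.12. Under total-count scaling, which moves the median of all genes by 0.24, 15 were higher and 12 were lower with a median of 0.12. Of all genes 2510 were then higher and 1027 lower, beside 1765 and 1421 under TMM scaling. The median of each list was then above 0, except that of the RANK and TAK1 input.

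Upstream of the ERK branch, 18 of 21 RAS and RAF genes were within 2-fold, with a median of -0.17. Of the 21, 1 was higher (4.76%, beside 14.6% of all genes) and 2 were lower (9.52%, beside 11.8%). The called genes all encode RAS-family GTPases. Rras2 had the highest log2 ratio at 1.41, from 2821 counts with Cpeb4 shRNA and 601 counts with control shRNA. Mras was lowest at -2.52, with 1550 counts with Cpeb4 shRNA and 5040 counts with control shRNA, followed by Rras at -1.25 and the phosphatase scaffold gene Shoc2 at -0.84. All 14 STE20-related kinase genes outside the MAP4K names were within 2-fold (median -0.022). Thus 0 were higher (beside 14.6% of all genes) and 0 lower (beside 11.8%). They ran from Pak1 (0.72), Taok2 (0.51) and Stk4 (0.17) to Slk (-0.22), Stk25 (-0.27) and Stk24 (-0.28).

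Upstream of TAK1, 13 of 15 genes were within 2-fold, with a median of -0.31. Of the 15, 1 was higher (6.67%, beside 14.6% of all genes) and 1 was lower (6.67%, beside 11.8%). Traf6, the adaptor that couples RANK to TAK1, was the lower of the called pair. It had 9363 counts (72.4 CPM) with Cpeb4 shRNA and 13488 counts (184 CPM) with control shRNA, a log2 ratio of -1.35 (-1.39 to -1.31). Traf2, the adaptor of TNF receptors, was the higher at 1.03 (0.95 to 1.10), a call lost under upper-quartile scaling and when the whole interval had to pass 2-fold. It was followed by the adaptor gene Myd88 (0.45) and the ubiquitin-conjugating enzyme gene Ube2n (0.28). The deubiquitinase genes Tnfaip3 and Cyld, which limit TRAF signalling, were at -0.93 and -0.88. The TAK1 partners did not stand out, with Tab1 at 0.17, Tab2 at 0.18 and Tab3 at -0.09.

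Scaffolds and adaptors had 18 of 19 genes within 2-fold and a median of -0.16, and total-count scaling made 2 of them higher. Under TMM scaling 0 were higher (beside 14.6% of all genes) and 1 was lower (5.26%, beside 11.8%). Gab2, an adaptor of RANK and growth factor receptors, was the lower gene at -1.36, and Lamtor1 and Arrb1 followed at -0.91 and -0.70. Wdr83, Arrb2 and Mapkbp1 had the highest ratios, at 0.90, 0.84 and 0.51.

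All called genes for enzymes that switch MAPKs off were lower under TMM scaling. In contrast, total-count scaling gave 2 higher and 3 lower (2510 and 1027 over all genes). A correction for GC content and length gave 1 higher and 3 lower (1764 and 1441 over all genes). Without a filter 1 was higher and 4 were lower. Of 17 MAPK phosphatase genes 4 were lower (23.5%, beside 11.8% of all genes), 0 were higher (beside 14.6% of all genes) and 13 were within 2-fold, with a median of -0.12 and a lower quartile of -0.80. Dusp4, a nuclear phosphatase of ERK and JNK, had 22312 counts (172 CPM) with Cpeb4 shRNA and 35381 counts (483 CPM) with control shRNA (log2 ratio -1.49, -1.51 to -1.46). Dusp3 had 10445 counts (80.7 CPM) with Cpeb4 shRNA and 20074 counts (274 CPM) with control shRNA (-1.76, -1.80 to -1.73). Dusp14 was lowest at -2.74, from 184 counts with Cpeb4 shRNA and 694 counts with control shRNA, and Dusp7, an ERK phosphatase, was at -1.13. The highest were Dusp2 (0.81), Ptpn7 (0.79) and Dusp1 (0.75), none past 2-fold under TMM scaling. Summed over the 17 genes, phosphatase RNA stood at 566 CPM with Cpeb4 shRNA and 1099 CPM with control shRNA, and Dusp4 and Dusp3 made up most of it in the control shRNA library.

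Feedback inhibitors of RAS and receptor signalling had 4 of 12 genes lower (33.3%, beside 11.8% of all genes), 1 higher (8.33%, beside 14.6%) and a median of -0.23. Total-count scaling gave 2 lower and 2 higher (1027 and 2510 over all genes). The correction for GC content and length gave 2 lower and 1 higher (1441 and 1764 over all genes). Without a filter 5 of 16 genes were lower and 3 higher. The filter had removed the higher Spred3 and Spry4 and the lower Rasal1. Spry1, a Sprouty inhibitor of the RAS and ERK pathway, had 1801 counts (13.9 CPM) with Cpeb4 shRNA and 4207 counts (57.4 CPM) with control shRNA (log2 ratio -2.05, -2.13 to -1.97). The ubiquitin ligase gene Cblb and the docking protein gene Dok3 were at -2.04 and -1.12, and Dok1 at -1.004 lay just past 2-fold. The related Dok2 went the other way at 1.57, followed by Cbl at 0.57 and Rasal3 at 0.32.

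Downstream, 6 of 7 kinase genes were within 2-fold, with a median of 0.38. The remaining gene was higher (14.3%, beside 14.6% of all genes). Rps6ka5, which encodes MSK1, a nuclear kinase of histone H3 and CREB that ERK and p38 activate, had 2406 counts with Cpeb4 shRNA and 456 counts with control shRNA (1.58, 1.43 to 1.73). Rps6ka2 and Rps6ka1, which encode ribosomal S6 kinases, were at 0.88 and 0.61, and Rps6ka4 at 0.09. With control shRNA Rps6ka2 stood at 0.806 CPM, and it passed the filter only through the Cpeb4 shRNA library. The MAPK-interacting kinase genes Mknk2 and Mknk1, whose products phosphorylate the cap-binding factor eIF4E, were at -0.54 and -0.38.

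Nuclear targets of MAPKs had 18 of 25 genes within 2-fold and a median of -0.064. Of the 25, 4 were higher (16%, beside 14.6% of all genes) and 3 lower (12%, beside 11.8%), both near the background. Fosl1 (3.82, from 250 counts with Cpeb4 shRNA and 10 counts with control shRNA), Myc (2.86) and Mef2c (1.91) were highest. The ERK-responsive gene Egr1 was lowest at -3.59, with 202 counts with Cpeb4 shRNA and 1375 counts with control shRNA. It was followed by the stress factor gene Ddit3 (-3.57) and Etv4 (-1.97). Fosl1 (0.137 CPM with control shRNA) and Etv4 (0.471 CPM with Cpeb4 shRNA) passed the filter only through the other library.

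**Figure D4:**
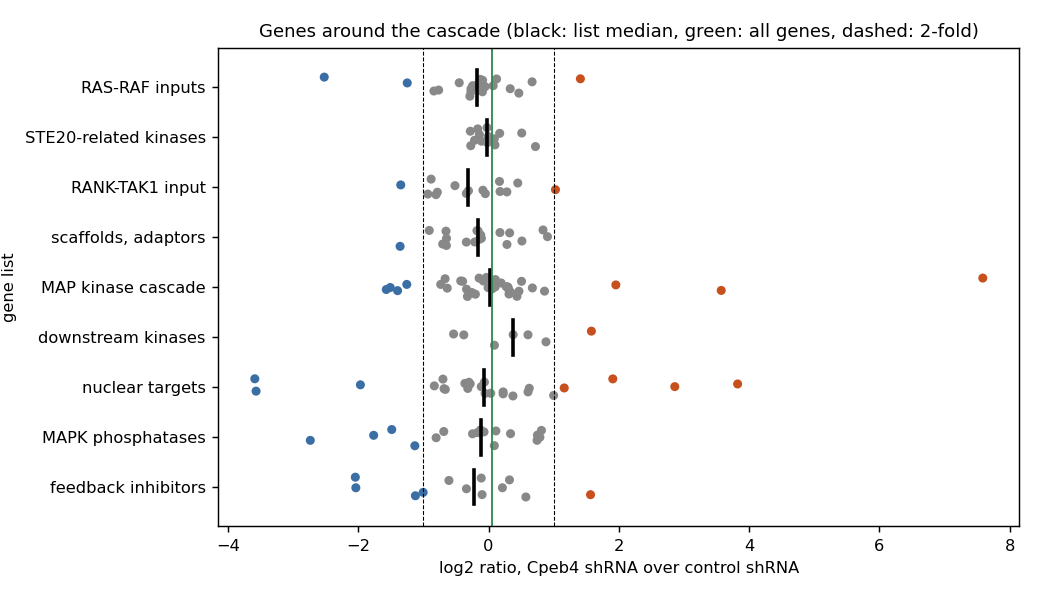
Log2 ratio of the Cpeb4 shRNA library over the control shRNA library for the cascade and for 8 lists of genes around it, with 1 point per gene past the filter, orange for at least 2-fold higher and blue for at least 2-fold lower. Black bars are list medians, which run from -0.31 for the RANK and TAK1 input to 0.38 for the downstream kinases, beside 0.051 for all genes (green line).

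CPEB proteins bind the cytoplasmic polyadenylation element in the 3′ UTR of mRNAs. The longest annotated 3′ UTR of each gene was therefore searched on the sense strand for the elements TTTTAT and TTTTAAT, whose matches cannot begin at the same base. At least 1 match was found in 26 of the 37 members (70.3%) and in 62.8% of 10462 protein-coding genes. The members' 3′ UTRs were longer, with medians of 1252 and 1168 bases. Among genes with a 3′ UTR of 612 to 2435 bases, the range between the members' quartiles, the shares were 73.7% of 19 members and 70.1% of 4961 genes.

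Members with and without a match had nearly the same median. The median log2 ratio was 0.024 for the 26 members with a match and 0.027 for the 11 without, beside 0.067 and -0.049 over all protein-coding genes. In the length range above, the medians were -0.17 for 14 members with a match and -0.20 for 5 without. Over all protein-coding genes in that range they were 0.050 and -0.18. Of the 7 called members 4 had a match, Map4k3, Map4k4, Map3k15 and Mapk4, while Map2k5, Map4k1 and Mapk11 had none. Of the 6570 protein-coding genes with a match, 920 were higher and 722 lower. Of the 3892 without a match, 496 were higher and 546 lower. The match nearest the 3′ end is shown for 3 of these called members and for Mapk8, which had 8 matches and a log2 ratio of 0.34, with the element in capitals in GENCODE M21 transcript sequence for GRCm38.
Map3k15: agcatacgtaTTTTATaaactagtgt
Map4k3: taactgatctTTTTATatttaaggag
Map4k4: acctcactgtTTTTAATgcattgagag
Mapk8: taaactaggtTTTTATtgaactacct
These matches lie 119, 617, 604 and 724 bases before the annotated end of the 3′ UTR in the order printed. A match describes the letters in the annotation and is no evidence of binding.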

How the data were processed

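RNA sequencing of 2 libraries was used, 1 with Cpeb4 shRNA and 1 with control shRNA. The deposited table holds whole-number read counts per gene for genes with at least 1 count in both libraries. Reads were aligned with HISAT2 to mm10, per the submitters' processing notes. The counting tool, its annotation and strand setting, and the HISAT2 version are not stated in the labels or the file.

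Counts were scaled with TMM in edgeR 4.0.16 (R 4.3.3; factors 1.08 for Cpeb4 shRNA and 0.922 for control shRNA), and genes were kept where the mean of both libraries reached 1 CPM. Log2 ratios carry exact Clopper-Pearson intervals (scipy 1.17.1), which cover counting error only. With 1 library per group they hold no spread between cultures. They would be too narrow where PCR copies of a molecule were counted as separate reads. They take each deposited value as whole reads, but values of 4 are in excess in both libraries, and it is not stated whether the values are estimates. A count of 3 is 0.023 CPM with Cpeb4 shRNA and 0.041 CPM with control shRNA. Identifiers matched GENCODE M21 (GRCm38) for 18935 of 18987 genes and all 39 members. Exons of 12 members overlap another annotated gene. This leaves their counts uncertain where strand was not used, and those of Map2k7, Mapkapk5 and Map3k13, which overlap a gene on the same strand, in either case. On the opposite strand, Map4k3 overlaps Gm9959, and Map3k12 overlaps Pcbp2 (60780 counts with Cpeb4 shRNA and 17758 counts with control shRNA). Lengths are the union of exons.

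The text names members at least 2-fold different, the extremes and the most abundant member of each tier, the main MAPKs and MAP2Ks, Map3k7, members below the filter, the 3 highest and 3 lowest genes of each list, and Cpeb4. A few others, such as related family members and Tab1 to Tab3, were named after their values were seen. A few genes covered by these rules are not reported here. Members and lists were chosen with earlier results of these data known. The computation was tested on simulated counts.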

Additional observations from a re-analysis of the deposited data

How the results depend on the processing

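No paired analysis was possible because there was a single library on each side. The correction for GC content and length was chosen after seeing the data. All 7 called members kept their call under total-count, DESeq2 1.42.0 size-factor, upper-quartile and reference-gene scaling. They also kept it without a filter, with a pseudocount of 0.5 CPM, with the whole interval past 2-fold and after GC and length correction. The pseudocount put Map3k15 at 4.31, Map4k1 at 2.94, Mapk11 at 1.66 and Mapk4 at -1.05, just past 2-fold. Total-count scaling added Map3k8 and moved the median of all genes by 0.24. At a mean of 10 CPM 0 members were higher, since Map3k15, Map4k1, Mapk11 and Mapk4 drop out. At 1.5-fold 5 of the 37 members were higher and 7 lower, and at 4-fold 2 were higher and 0 lower. The members' median log2 ratio was 0.26 with total-count, 0.012 with DESeq2, -0.0095 with upper-quartile and 0.058 with reference-gene scaling, 0.055 without a filter, -0.020 at 10 CPM, 0.024 with the pseudocount and 0.15 after GC and length correction. Cpeb4 was at -1.49, -1.76 and -1.70 with total-count, upper-quartile and reference-gene scaling and at -1.79 after GC and length correction. All genes higher and lower numbered 3217 and 2930 without a filter, 1025 and 907 at 10 CPM, 3191 and 2674 at 1.5-fold, and 582 and 426 at 4-fold. List genes higher and lower numbered 15 and 12 with total-count scaling, with a median log2 ratio of 0.12, and those higher and lower 21 and 33 at 1.5-fold and 2 and 6 at 4-fold. Filters and thresholds set these counts by construction. Total-count scaling gave 71.0% higher among all called genes, beside 55.4% with TMM. Counts near 4 limit the size of the Map3k15 difference.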
